A study of Mus musculus with 90 samples.

Results

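Heat shock proteins and chaperones were described as 77 genes among the 38561 in the count table. They were the protein-coding mouse genes whose symbols start with Hspa, Hspb, Hspd, Hspe, Hsph, Hsp90, Dnaja, Dnajb or Dnajc, together with Cct2 to Cct8 and Bag1 to Bag6. Of 87 such genes, the 77 kept had a mean of at least 1 CPM, counts scaled to a library of 1000000, in the striatum or the cortex. Dnajb3 was just inside that limit, at 1.19 CPM in its higher tissue, and Hspb2 just outside it, at 0.573 CPM. The rule itself used no measured difference between groups, but the members were chosen with earlier results of these data known. The families were 13 HSP70 and HSP110 genes, 3 HSP90 genes, HSP60 with its partner HSP10, 7 subunits of the chaperonin CCT, DNAJ co-chaperones (4 of type A, 10 of type B, 25 of type C), 6 BAG genes, 5 small heat shock proteins and 2 other Hsp-prefixed cofactors.

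RNA was sequenced from the right cortex and striatum of 45 C57BL6/J mice aged 9 months, 1 library per tissue and mouse. Mice homozygous for Q175, in which an expanded CAG repeat is knocked into the mouse Htt gene as a model of Huntington's disease, were dosed orally each day, starting at 5 weeks of age, with either vehicle (7 mice per tissue) or PF-02545920, which inhibits the striatum-rich phosphodiesterase PDE10A, at 0.32 mg/kg (10 mice), 1.0 mg/kg (10 mice) or 3.2 mg/kg (9 mice). WT mice received vehicle (9 mice per tissue), and no WT mouse received the compound. Each arm held 5 females, and replicates were separate mice, named by sex and number within the arm. The libraries were whole tissue, so fewer cells of a type and less RNA per cell could not be told apart.

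Chaperones bind unfolded or partly folded proteins and, using ATP, help them to fold, refold or be degraded. HSP70 proteins take substrates from DNAJ co-chaperones and release them with the help of BAG proteins and HSP110, HSP90 completes the folding of kinases and receptors, and the ring-shaped CCT complex folds actin and tubulin. Small heat shock proteins hold unfolded clients without ATP. In Huntington's disease these proteins have been studied because several of them keep expanded polyglutamine proteins soluble.

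The depth was 30510374 to 44943841 counts per striatum library and 37233807 to 45781479 counts per cortex library. Htt checked the genotype labels: it was at 114 ± 6.30 CPM in Q175 vehicle striata against 198 ± 14.5 CPM in WT vehicle striata (SD, n = 7 and 9), and at 128 ± 4.86 CPM against 227 ± 8.52 CPM in the cortex. The sex in the labels matched sex-linked transcripts in 90 of 90 libraries. Cortex libraries F1 and F4 of the 1.0 mg/kg arm stood apart from their arm, with Htt as low as 72.7 CPM. Q175 vehicle mouse F4 stood apart in both tissues, with 5 blood markers (hemoglobin genes and Alas2) summing to 1206 CPM in the striatum and 1444 CPM in the cortex, where no other library of the series was above 236.5 CPM. The counts of members called for a dose are given with and without these libraries. Markers of medium spiny neurons, the principal neurons of the striatum, checked the tissue: 15 of 15 were higher in WT striatum than in WT cortex, and 10 of 10 markers of cortical excitatory neurons were lower.

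In WT brains the members differed widely in level. On the FPKM scale, which divides by gene length and so allows comparison between genes, Hspa8, the constitutive cytosolic HSP70, was the highest member in both tissues, with a mean of 665 FPKM in the striatum and 739 FPKM in the cortex. The 2 cytosolic HSP90 genes followed, Hsp90ab1 at 504 and 469 FPKM and Hsp90aa1 at 232 and 271 FPKM in striatum and cortex. The 5 highest members held 45.9% of the summed FPKM of all 77 in WT striatum and 45.4% in WT cortex. The stress-inducible Hspa1b was at 1.04 FPKM in WT striatum and 5.55 FPKM in WT cortex, and the small heat shock protein Hspb1 at 5.32 and 5.47 FPKM. Hspa1b and Hspb1 were among the most variable members between mice. The coefficient of variation of CPM among WT mice was 52.4% for Hspa1b in the striatum and 24.6% for Hspb1 in the cortex. It was 55.1% in the striatum for Hspb3, the lowest member there at 0.349 FPKM. The more abundant Hspa5, at 81.7 FPKM in the cortex, stood at 21.3% there. The median over members was 7.50% in the striatum and 4.61% in the cortex.

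All 77 members were measured in both tissues, and many differed in level between striatum and cortex of WT mice, at shares near those of all genes. In edgeR's quasi-likelihood test with the mouse as a block, 32 members were higher and 22 lower in striatum than in cortex at a Benjamini-Hochberg adjusted p under 0.05, the rule for a call throughout, where 38.1% of all genes were higher and 35.1% lower. The inducible HSP70 genes were among the lowest in striatum relative to cortex, with log2 differences of -2.38 ± 0.109 for Hspa1b and -1.74 ± 0.0872 for Hspa1a (SE, adjusted p = 1.81e-24 and 5.94e-23). These neighbouring genes encode nearly identical proteins and share reads, so their split is uncertain. The muscle-type small heat shock protein Hspb3 (log2 difference -2.70 ± 0.209), the HSP70 exchange factor Bag2 (-1.29 ± 0.0494) and Dnajc21, which acts in ribosome assembly (-1.16 ± 0.0435), were also lower in striatum. Higher in striatum were Dnajc2, a ribosome-bound co-chaperone (0.89 ± 0.0402), Bag5 (0.76 ± 0.0339) and Dnajb4 (0.72 ± 0.038).

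In vehicle-treated mice, 23 members were higher and 13 lower in Q175 than in WT striatum, and 21 were higher and 17 lower in Q175 than in WT cortex. That is 46.8% of the members in the striatum, where 45.1% of all 17315 genes tested were called (21.9% higher and 23.2% lower), and 49.4% in the cortex, where 30.4% of 17603 genes were called (14% higher and 16.4% lower). The striatal share was near that of all genes. The median log2 difference of the members was 0.03 in the striatum and 0.02 in the cortex on the TMM scale, and that of all genes tested was 0.000 and 0.002. Between the tissues, which came from the same mice, 15 members rose in both, 10 fell in both and 29 were called in neither, where 9% of the 17020 genes tested in both tissues rose in both, 10.7% fell in both and 44.7% were called in neither. Hspa8, Hsp90aa1, Hsp90ab1 and CCT genes made up 9 of the 15 that rose in both tissues, and chaperones of the endoplasmic reticulum (ER) 4 of the 10 that fell in both. Hspa8 was the only cytosolic HSP70 among those 15. The CPM of every Q175 library lay above every WT library for 9 members and below for 3 in the striatum, where 15% of all genes tested did not overlap in either direction, and above for 13 and below for 5 in the cortex, where 11.8% did not. On the deposited FPKM scale, log2(FPKM + 0.1), all genes tested shifted up in Q175 striatum by a median of 0.11, and the members then split 46 higher and 6 lower in the striatum and 31 higher and 8 lower in the cortex. After that shift was removed by centring each library on its median, an alternative chosen after seeing the data, the splits were 23 higher and 14 lower in the striatum and 21 higher and 11 lower in the cortex. The shares of all genes called on these FPKM scales are not given here, so these splits are not read as results about the members.

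**Figure D1:**
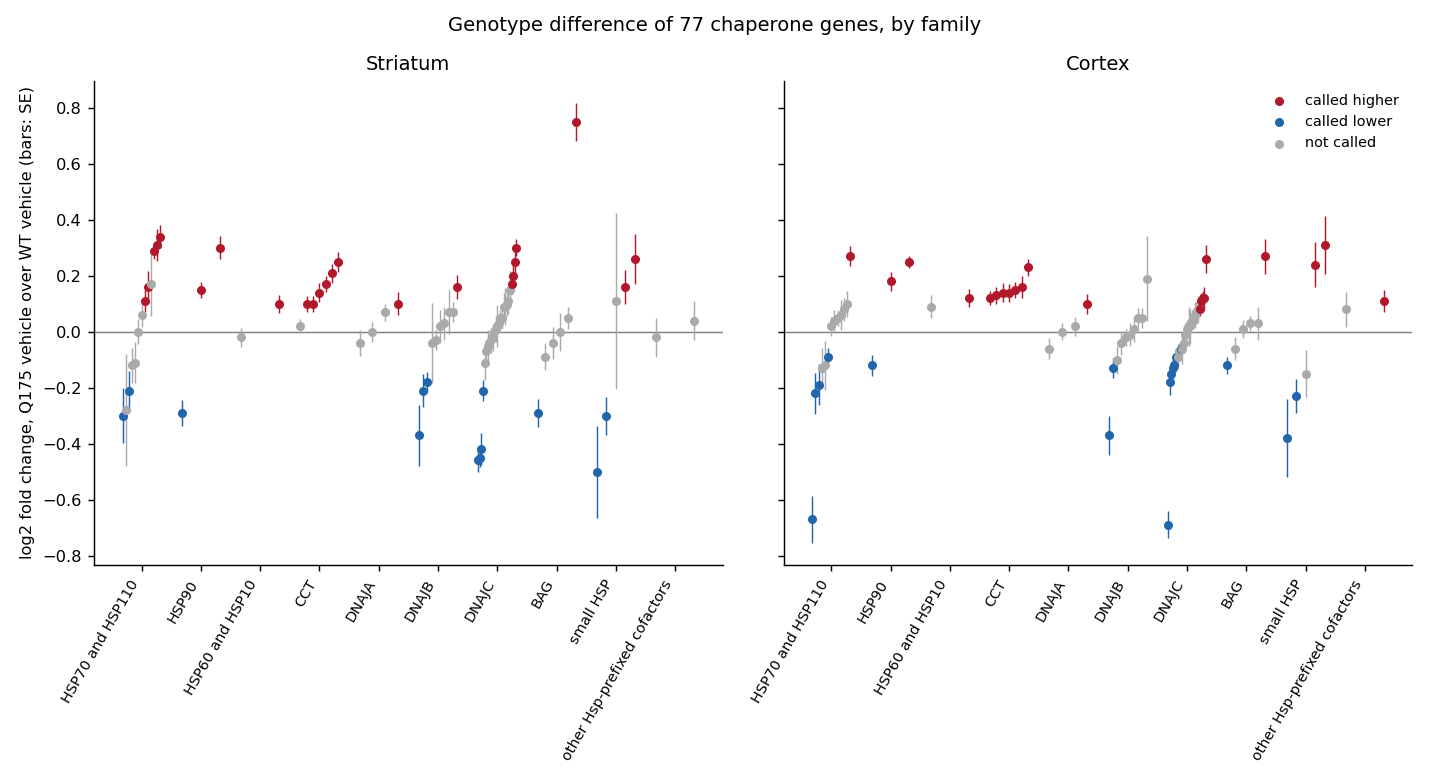
Each point is 1 of 77 chaperone genes, placed by family on the horizontal axis, and the vertical axis is the log2 fold change of Q175 vehicle over WT vehicle with its SE, in striatum (left) and cortex (right). CCT and cytosolic HSP90 points lie above 0 in both tissues, Bag2 is the highest point in the striatum at 0.75, and Dnajc21 and Hspa1b are the lowest in the cortex at -0.69 and -0.67.

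Hspa8, which also strips clathrin from vesicles at synapses, was the most abundant member that rose in both tissues. In the striatum it ran from 2009.7 to 2102 CPM with a median of 2054 CPM in the 7 Q175 mice, against 1412 to 1894 CPM with a median of 1674 CPM in the 9 WT mice. In the cortex the Q175 range was 1977 to 2189 CPM around a median of 2104 CPM, against a WT range of 1589 to 1911 CPM around 1759 CPM. Every Q175 library lay above every WT library in each tissue. The log2 difference was 0.34 ± 0.0415 in the striatum and 0.27 ± 0.0359 in the cortex (SE, adjusted p = 4.21e-09 and 6.60e-08). Its gene lies at chr9:40800984-40810087 on the plus strand of GRCm38.

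Hsp90aa1, the inducible cytosolic HSP90, ran from 869 to 949.9 CPM with a median of 894 CPM in Q175 striata, against 675 to 802 CPM with a median of 731 CPM in WT striata. In the cortex it ran from 895 to 972 CPM around 923 CPM in Q175 mice, against 755 to 843 CPM around 820.2 CPM in WT mice. Its constitutive partner Hsp90ab1 spanned 1463 to 1536 CPM around 1522 CPM in Q175 striata, against 1244 to 1453 CPM around 1384 CPM in WT striata. None of these ranges overlapped between genotypes, nor did those of Hsp90ab1 in the cortex, at 1396 to 1479 CPM in Q175 mice against 1169.7 to 1260.2 CPM in WT mice. The log2 differences were 0.30 ± 0.0414 in the striatum and 0.18 ± 0.0332 in the cortex for Hsp90aa1, and 0.15 ± 0.029 and 0.25 ± 0.0215 for Hsp90ab1. The genotype difference of Hsp90ab1, striatum minus cortex, was -0.09 ± 0.0344 on the log2 scale (adjusted p = 0.0467), and lost its call without Q175 vehicle mouse F4 (adjusted p = 0.0628). All 77 members together took 1.07 ± 0.0183% of all counts in Q175 striata against 0.921 ± 0.038% in WT striata, and 1.07 ± 0.0281% in Q175 cortices against 0.968 ± 0.0297% in WT cortices. This share of all counts was not TMM-scaled, and the most abundant members weigh most in it. It does not describe the typical member, whose median log2 difference on the TMM scale is given above.

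Dnaja1 and Dnajc6, co-chaperones that work with Hspa8, also rose in both tissues. Dnajc6, the neuronal auxilin that recruits Hspa8 to clathrin coats, was at 232 ± 7.98 CPM in Q175 against 190.3 ± 10.7 CPM in WT striata and at 337 ± 12.6 CPM against 311 ± 8.88 CPM in the cortex (SD). Its log2 difference was 0.30 ± 0.0307 in the striatum and 0.12 ± 0.025 in the cortex, and the striatal one was larger by 0.17 ± 0.0375 (adjusted p = 0.00061). Hspa2, an HSP70 best known from testis, Hspa4l, an HSP110, and Dnajb14, an ER membrane co-chaperone, rose in the striatum by 0.16 ± 0.0568, 0.11 ± 0.0401 and 0.16 ± 0.0437, and Hspa12b, known from endothelial cells, fell there by 0.30 ± 0.0975. Of 10 endothelial markers 4 were lower and none higher in the same comparison, with summed levels of 381 to 431 CPM around 387 CPM in Q175 striata against 391 to 476 CPM around 432 CPM in WT striata, and their part in the Hspa12b result was not tested. In the cortex none of the 10 was called, and the genotype difference was lower in striatum than in cortex for 4 of them. Dnaja1 differed by 0.10 ± 0.0417 and 0.10 ± 0.0349, and its call was lost in 9 of 16 fits of the striatum and 6 of 16 of the cortex that left out 1 library.

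Of the 7 CCT genes, 6 were higher in Q175 striatum and 7 in Q175 cortex, where 21.9% and 14% of all genes were higher. Their median log2 difference was 0.14 in each tissue. Cct6a ran from 71.3 to 76.0 CPM around 72.3 CPM in Q175 striata, against 54.6 to 66.4 CPM around 63.4 CPM in WT striata, and the groups did not overlap. In the cortex its 68.2 to 76.9 CPM in Q175 mice overlapped the 60.9 to 69.0 CPM of WT mice. Cct3 was at 104 to 111 CPM around 108 CPM in Q175 cortices, against 87.1 to 96.9 CPM around 90.7 CPM in WT cortices, with no overlap. In the striatum 6 of the 7 Q175 mice lay above the highest WT mouse for Cct3, and mouse F4 stood apart from the other Q175 mice at 130.1 CPM. The differences were 0.25 ± 0.0348 for Cct6a in the striatum and 0.23 ± 0.03 for Cct3 in the cortex (log2, adjusted p = 8.97e-08 and 4.16e-08). The other called subunits differed by 0.10 ± 0.0278 and 0.13 ± 0.0302 for Cct2, 0.21 ± 0.0339 and 0.16 ± 0.0383 for Cct4, 0.10 ± 0.0282 and 0.14 ± 0.0334 for Cct5 and 0.14 ± 0.0327 and 0.14 ± 0.0321 for Cct8 in striatum and cortex. For these 4 subunits the call held in 16 of 16 fits per tissue that left out 1 library. Cct7 was the subunit not called in the striatum, and its genotype difference, striatum minus cortex, was -0.11 ± 0.0364 (adjusted p = 0.0278). Reads of Cct6a and Cct8 cannot be told from those of the overlapping genes Psph and Usp16 if strand was not used.

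**Figure D2:**
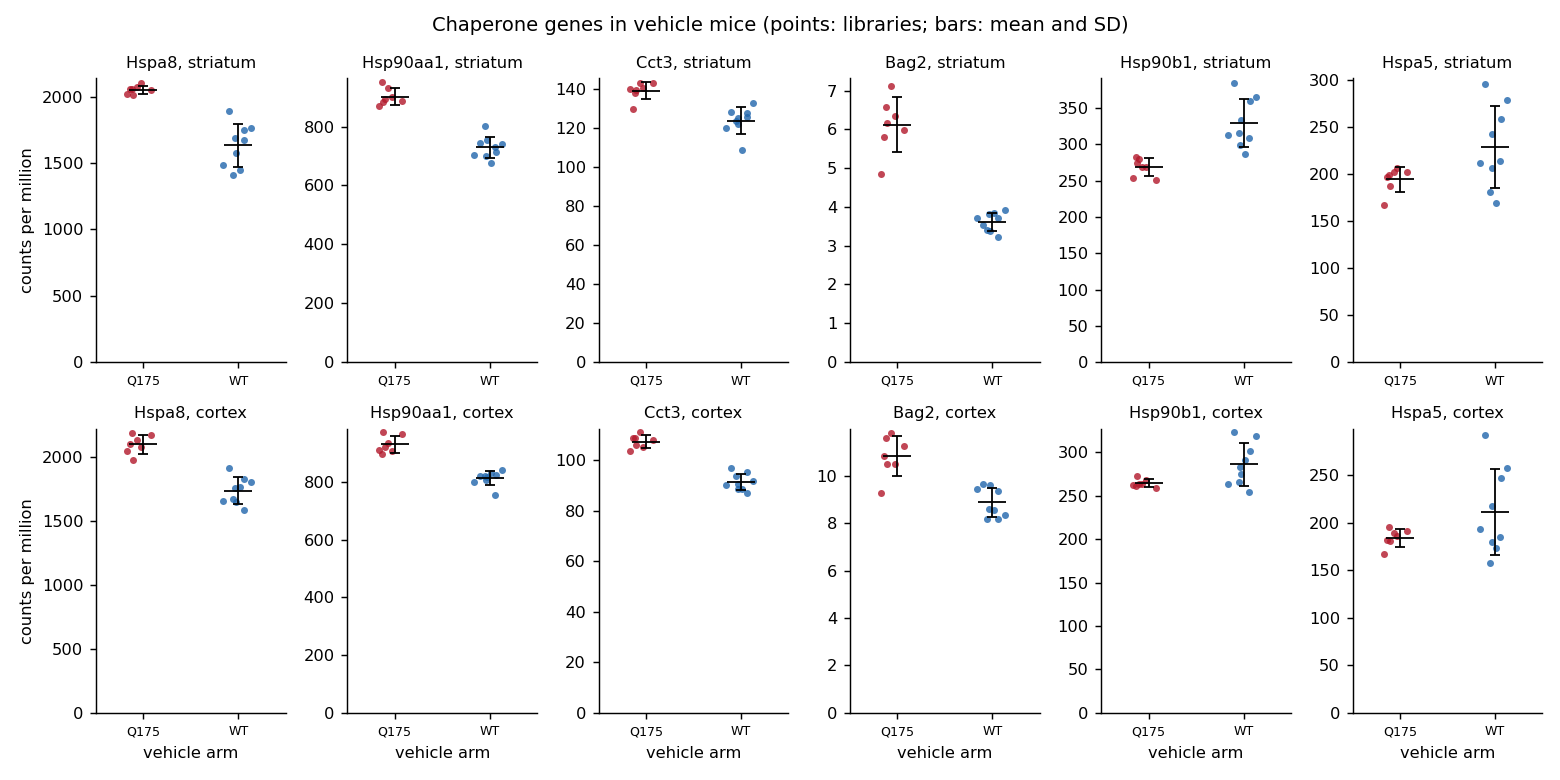
Points are libraries in CPM (vertical axis, from 0), with the Q175 vehicle arm left of the WT vehicle arm, for 6 genes in striatum (top) and cortex (bottom), and bars are the mean and SD. Q175 libraries lie above WT libraries for Hspa8 and Hsp90aa1 and for striatal Bag2, and below WT libraries for striatal Hsp90b1, while the WT mice spread widely for Hspa5.

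Among chaperones of the ER lumen more were lower than higher on the count scale. Of 8 such members 4 were lower and 1 higher in Q175 striatum, and 5 were lower and none higher in Q175 cortex. Of all genes tested 23.2% were lower and 21.9% higher in the striatum, and 16.4% lower and 14% higher in the cortex. Hsp90b1, the HSP90 of the ER, ran from 251 to 283 CPM around 268 CPM in Q175 striata, against 287 to 384 CPM around 316 CPM in WT striata, without overlap. In the cortex it was at 258 to 273 CPM around 263 CPM in Q175 mice, within the 254 to 323 CPM of WT mice. The log2 difference was -0.29 ± 0.0477 in the striatum and -0.12 ± 0.0387 in the cortex, and striatum minus cortex it was -0.18 ± 0.0439 (adjusted p = 0.00138). Hspa5, the ER HSP70 known as BiP, had medians of 198 CPM in Q175 and 214 CPM in WT striata and of 186 CPM in Q175 and 194 CPM in WT cortices. It ran from 167 to 206 CPM in Q175 striata against 169 to 295 CPM in WT striata, and from 167 to 195 CPM in Q175 cortices against 158 to 292 CPM in WT cortices, so the groups overlapped and the WT mice spread more. Hspa5 differed by -0.21 ± 0.0714 in the striatum and -0.19 ± 0.0734 in the cortex (adjusted p = 0.0136 and 0.0447). Without WT mouse M3, the highest in both tissues, it differed by -0.17 (adjusted p = 0.0397) and by -0.13 (adjusted p = 0.136). In the cortex the call was lost in 9 of 16 fits that left out 1 library, with values of -0.23 to -0.13, and in the striatum without Q175 mouse M2, at -0.16 (adjusted p = 0.0671).

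The ER co-chaperones Dnajb11 and Dnajc1 fell in both tissues, with log2 differences of -0.18 ± 0.0347 in the striatum and -0.13 ± 0.0361 in the cortex for Dnajb11 and of -0.21 ± 0.0368 and -0.18 ± 0.0459 for Dnajc1. Dnajc10, a disulfide reductase, fell in the cortex by 0.15 ± 0.0339. Hspa13 was the exception and rose in the striatum by 0.31 ± 0.0557 (adjusted p = 1.12e-05), more than in the cortex by 0.18 ± 0.0683 (adjusted p = 0.0478, and 0.0691 without Q175 mouse F4). On the log2(FPKM + 0.1) scale, with its upward shift of all genes, 1 of the 8 ER members was lower in the striatum and 3 were higher, and centring on the median returned 4 lower and 1 higher.

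Promoters of Hspa5 and Hsp90b1 are shown because both genes fell together and hold an ER stress element, the motif read by ATF6. The motif was searched on both strands as CCAAT and CCACG with 9 bases of any kind between them in RefSeq promoters of GRCm38.p6, from 250 bases before to 50 after a start site. It was in promoters of 3 members (Dnajc3, Hsp90b1 and Hspa5), or 3.57% of the 84 promoters listed for 64 members, and in 0.119% of all 32851 promoters. Dnajc3 was called in neither tissue, at 0.05 in the striatum and -0.07 in the cortex (log2). A match is a description of the letters only. Capitals mark the matches, which start at position -65 from the start site in Hspa5 and at positions -212 and -107 in Hsp90b1.
Hspa5 promoter, chr2:34771840-34772139, plus strand: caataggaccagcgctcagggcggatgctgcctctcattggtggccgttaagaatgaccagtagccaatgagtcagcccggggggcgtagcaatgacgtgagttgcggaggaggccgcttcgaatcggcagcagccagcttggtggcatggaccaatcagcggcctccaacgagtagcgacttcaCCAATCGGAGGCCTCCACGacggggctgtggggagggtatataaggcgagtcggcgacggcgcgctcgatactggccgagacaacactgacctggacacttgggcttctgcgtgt
Hsp90b1 promoter, chr10:86705395-86705694, minus strand: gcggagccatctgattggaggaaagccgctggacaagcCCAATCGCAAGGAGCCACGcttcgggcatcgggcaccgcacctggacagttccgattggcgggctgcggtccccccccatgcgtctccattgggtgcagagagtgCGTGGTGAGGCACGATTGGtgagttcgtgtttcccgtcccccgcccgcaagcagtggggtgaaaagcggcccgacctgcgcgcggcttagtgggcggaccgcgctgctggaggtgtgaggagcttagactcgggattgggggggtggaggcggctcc

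The inducible HSP70 genes fell in the cortex. Hspa1b ran from 7.69 to 11.3 CPM around 9.70 CPM in Q175 cortices, against 12.9 to 21.1 CPM around 15.1 CPM in WT cortices, with no overlap. Its log2 difference was -0.67 ± 0.0841 (adjusted p = 1.61e-08) and stayed at -0.60 without WT mouse M3, the highest. Hspa1a differed by -0.22 ± 0.0723 (adjusted p = 0.0172), and lost its call without Q175 mouse M1, at -0.18 (adjusted p = 0.0699), or without WT mouse M3, at -0.17 (adjusted p = 0.0533). In the striatum Hspa1b was at 2.11 to 3.04 CPM around 2.57 CPM in Q175 mice, inside the 1.49 to 6.78 CPM of WT mice, and neither gene was called. The genotype difference was higher in striatum than in cortex by 0.48 ± 0.17 for Hspa1b and 0.42 ± 0.131 for Hspa1a (adjusted p = 0.0375 and 0.0158). Among genes holding the heat shock element (GAA, TTC and GAA with 2 bases of any kind between neighbours, on both strands) in these promoters, which were Dnajb6, Hspd1, Hspe1 and Hsph1 (7.14% of member promoters, 0.603% of all), Hspd1 alone was called in either tissue. The matches of Hspd1 and Hspe1 are the same bases, and Dnajb6 and Hsph1 each hold the same site in overlapping promoters. Other members are not shown to lack the element, since this exact pattern was searched and 64 of 77 members had a listed promoter. Hspd1, the mitochondrial HSP60, was higher in Q175 by 0.10 ± 0.0327 in the striatum and 0.12 ± 0.0312 in the cortex. The Hspd1 promoter that holds the element is shown with 2 overlapping matches in capitals, the first starting at position -144 from the start site. Another listed Hspd1 promoter, chr1:55088194-55088493, held no match. Hspd1 and Hspe1 overlap on opposite strands, so their reads may mix.
Hspd1 promoter, chr1:55087883-55088182, minus strand: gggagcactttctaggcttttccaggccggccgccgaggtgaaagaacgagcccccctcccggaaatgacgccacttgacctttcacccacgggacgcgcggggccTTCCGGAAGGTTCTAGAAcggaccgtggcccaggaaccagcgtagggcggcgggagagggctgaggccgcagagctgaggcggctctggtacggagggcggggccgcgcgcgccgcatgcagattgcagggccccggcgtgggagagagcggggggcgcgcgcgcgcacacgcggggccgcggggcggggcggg

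Among the 25 DNAJ genes of type C, 4 were higher and 4 lower in Q175 striatum, and 5 were higher and 7 lower in Q175 cortex. Of all genes 21.9% were higher and 23.2% lower in the striatum, and 14% higher and 16.4% lower in the cortex. Dnajc8, found with splicing factors, ran from 66.5 to 72.6 CPM around 71.1 CPM in Q175 striata, against 87.2 to 104 CPM around 99.2 CPM in WT striata. In the cortex it was at 64.1 to 70.8 CPM around 69.4 CPM in Q175 mice, against 71.1 to 77.4 CPM around 74.4 CPM in WT mice. The genotypes did not overlap in either tissue, and the log2 difference was -0.46 ± 0.041 in the striatum and -0.12 ± 0.0274 in the cortex, with a difference between tissues of -0.35 ± 0.0424 (adjusted p = 8.15e-09). Dnajc7, which binds both HSP70 and HSP90, was at 165 ± 4.60 CPM in Q175 against 227 ± 14.4 CPM in WT striata (SD), a log2 difference of -0.45 ± 0.0334 against -0.09 ± 0.0231 in the cortex. Dnajc7 overlaps the abundant oligodendrocyte gene Cnp (653 CPM in striatum) on the other strand, so its counts are uncertain, and Cnp itself differed by 0.13 ± 0.0735 in the striatum (adjusted p = 0.135) and by 0.18 ± 0.0571 in the cortex (adjusted p = 0.0138). Dnajc2 fell in the striatum by 0.42 ± 0.058 (adjusted p = 6.29e-08) and differed by -0.04 ± 0.0344 in the cortex (adjusted p = 0.422).

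Dnajc21 fell in the cortex. It ran from 17.8 to 23.9 CPM around 19.9 CPM in Q175 cortices, against 30.4 to 35.3 CPM around 33.2 CPM in WT cortices, and from 12.8 to 14.9 CPM in Q175 striata against 13.5 to 16.5 CPM in WT striata. The cortical groups did not overlap and the striatal groups did. The cortical log2 difference was -0.69 ± 0.0478 (adjusted p = 1.14e-15), and the genotype difference was higher in striatum than in cortex by 0.63 ± 0.0661 (adjusted p = 2.53e-10). Of the type C genes that rose, Dnajc12, a co-chaperone of the aromatic amino acid hydroxylases, was at 10.9 to 12.9 CPM around 11.4 CPM in Q175 cortices, against 9.08 to 10.7 CPM around 9.84 CPM in WT cortices. The cortical groups did not overlap, and its log2 difference was 0.26 ± 0.0511 in the cortex (adjusted p = 9.38e-05) and 0.11 ± 0.0472 in the striatum (adjusted p = 0.0629). Dnajc27, which carries a Rab-like GTPase domain, rose by 0.20 ± 0.0495 in the striatum and 0.11 ± 0.03 in the cortex. Dnajc5, the cysteine string protein of synaptic vesicles, was at 373 to 395 CPM around 380.1 CPM in Q175 cortices, against 385 to 413 CPM around 401 CPM in WT cortices. The groups overlapped, and it differed by -0.06 ± 0.0242 there (adjusted p = 0.0454).

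**Figure D3:**
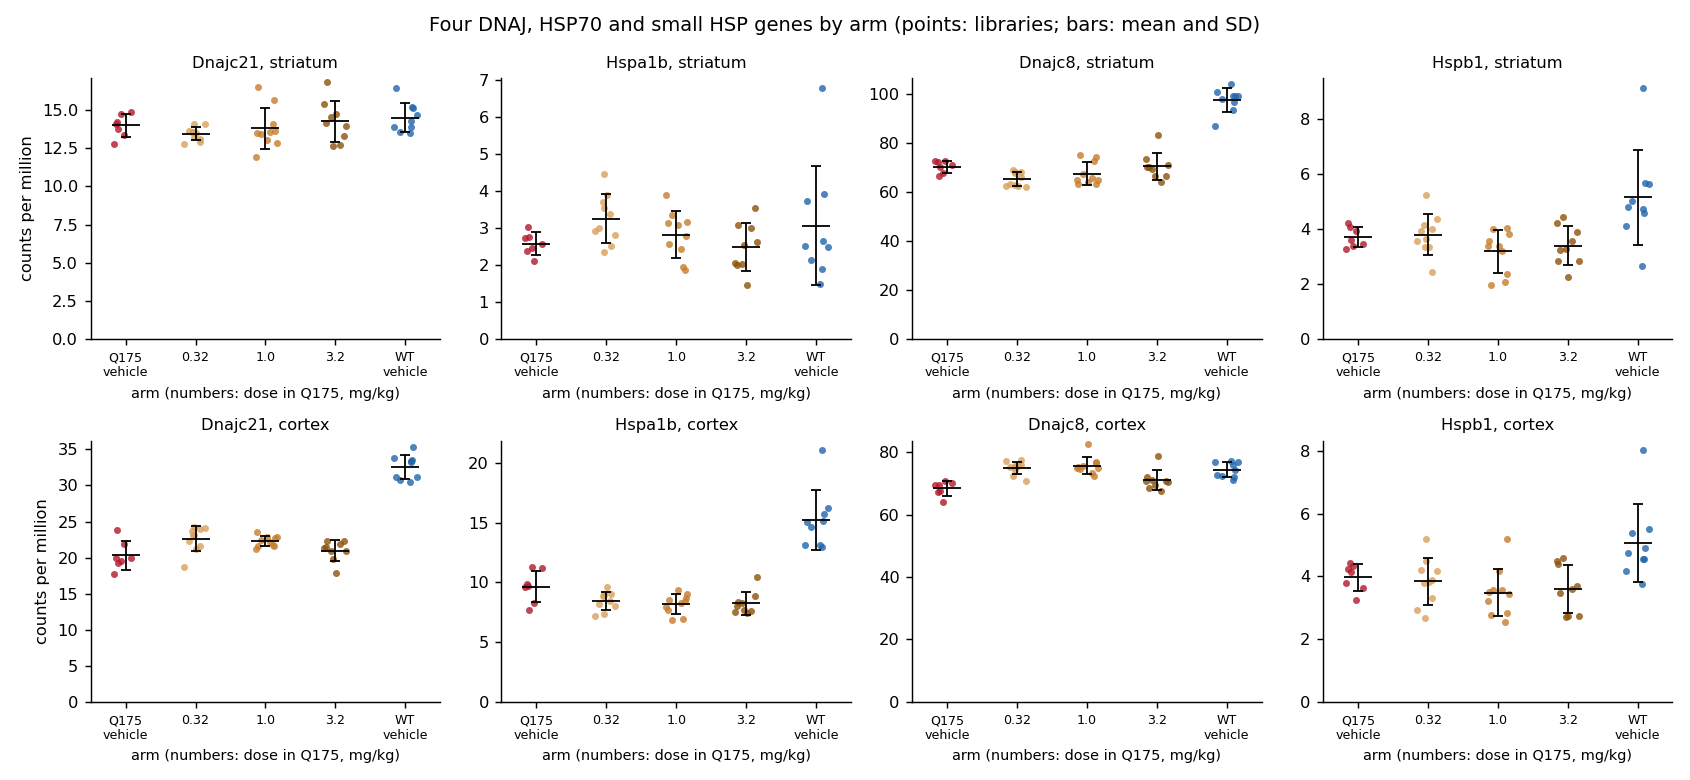
Points are libraries in CPM (vertical axis, from 0) for Dnajc21, Hspa1b, Dnajc8 and Hspb1 in striatum (top) and cortex (bottom), with the Q175 arms by dose left of WT vehicle, and bars are the mean and SD. The means of all 4 Q175 arms lie below the WT mean for cortical Dnajc21 and Hspa1b and for striatal Dnajc8, and 1 WT mouse, M3, stands high for Hspa1b and Hspb1 in both tissues.

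Of the BAG exchange factors, Bag2, which restrains the ubiquitin ligase CHIP, rose most of all members in the striatum. It was at 4.85 to 7.12 CPM around 6.16 CPM in Q175 striata, against 3.23 to 3.91 CPM around 3.72 CPM in WT striata. In the cortex it was at 9.30 to 11.8 CPM around 10.8 CPM in Q175 mice, against 8.19 to 9.65 CPM around 8.61 CPM in WT mice. The striatal groups did not overlap, and in the cortex 6 of 7 Q175 mice were above all WT mice. Its log2 difference was 0.75 ± 0.0677 in the striatum and 0.27 ± 0.0627 in the cortex (adjusted p = 1.14e-12 and 0.000643), larger in the striatum by 0.46 ± 0.0717 (adjusted p = 1.95e-06). Bag5 differed by -0.29 ± 0.05 in the striatum and -0.12 ± 0.0311 in the cortex, both called, and the other 4 BAG genes were called in neither tissue.

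The small heat shock proteins did not move as a group. Hspb1 was at 3.26 to 4.22 CPM around 3.61 CPM in Q175 striata, against 2.67 to 9.13 CPM around 4.79 CPM in WT striata, and the ranges overlapped. It differed by -0.50 ± 0.164 in the striatum and -0.38 ± 0.138 in the cortex (log2, adjusted p = 0.0113 and 0.0317). Without WT mouse M3 the values were -0.35 (adjusted p = 0.0473) and -0.26 (adjusted p = 0.104). The cortical call was also lost without Q175 mice M1 or F1 or WT mice M2 or M4, with values of -0.42 to -0.26 over 16 such fits. Hspb8, which works with Bag3, fell by 0.30 ± 0.0681 in the striatum and by 0.23 ± 0.0621 in the cortex. Hspb6 rose by 0.26 ± 0.0879 in the striatum and 0.24 ± 0.0807 in the cortex, and lost its striatal call without Q175 mouse F5, at 0.21 (adjusted p = 0.054). Hspb6 overlaps Lin37 on the other strand. Hspb3 rose in the cortex by 0.31 ± 0.105 (adjusted p = 0.0196), and Hspb11, which works in cilia and has no crystallin domain, rose in the striatum by 0.16 ± 0.0602 (adjusted p = 0.03), each call lost in some of 16 fits that left out 1 library (2 for Hspb3 and 6 for Hspb11). The cofactor Hspbp1, an HSP70 exchange factor, rose in the cortex by 0.11 ± 0.0398 (adjusted p = 0.0383), a call lost in 9 of 16 such fits.

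The genotype differences of 10 members were higher and those of 9 lower in striatum than in cortex by test, where 9.64% of all genes were higher and 11.6% lower. Hspa12a, an atypical HSP70, was the member called in opposite directions, with 168.0 ± 5.70 CPM in Q175 against 139 ± 7.17 CPM in WT striata and 227 ± 7.32 CPM in Q175 against 243 ± 7.56 CPM in WT cortices (SD). Its log2 difference was 0.29 ± 0.0282 in the striatum and -0.09 ± 0.0322 in the cortex (adjusted p = 0.0209), a difference between tissues of 0.37 ± 0.0413 (adjusted p = 1.13e-09). The cortical call was lost without Q175 mouse F4 or F5. Dnajc15, an inner mitochondrial membrane co-chaperone, rose by 0.25 ± 0.0462 in the striatum (adjusted p = 1.37e-05) and differed by -0.01 ± 0.0414 in the cortex (adjusted p = 0.854). Dnajb4 was at 68.4 to 81.9 CPM around 73.8 CPM in Q175 striata, against 63.0 to 93.9 CPM around 89.2 CPM in WT striata, with log2 differences of -0.21 ± 0.0588 in the striatum (adjusted p = 0.00345) and -0.01 ± 0.0407 in the cortex (adjusted p = 0.85). Hsph1, the main HSP110, was called in neither tissue, at -0.12 ± 0.0633 in the striatum and 0.06 ± 0.0544 in the cortex (adjusted p = 0.126 and 0.473), yet the difference between tissues was -0.18 ± 0.0417 (adjusted p = 0.000957). For Hspa8 the tissues differed by 0.06 ± 0.0436 (adjusted p = 0.386), which is no call in either direction.

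**Figure D4:**
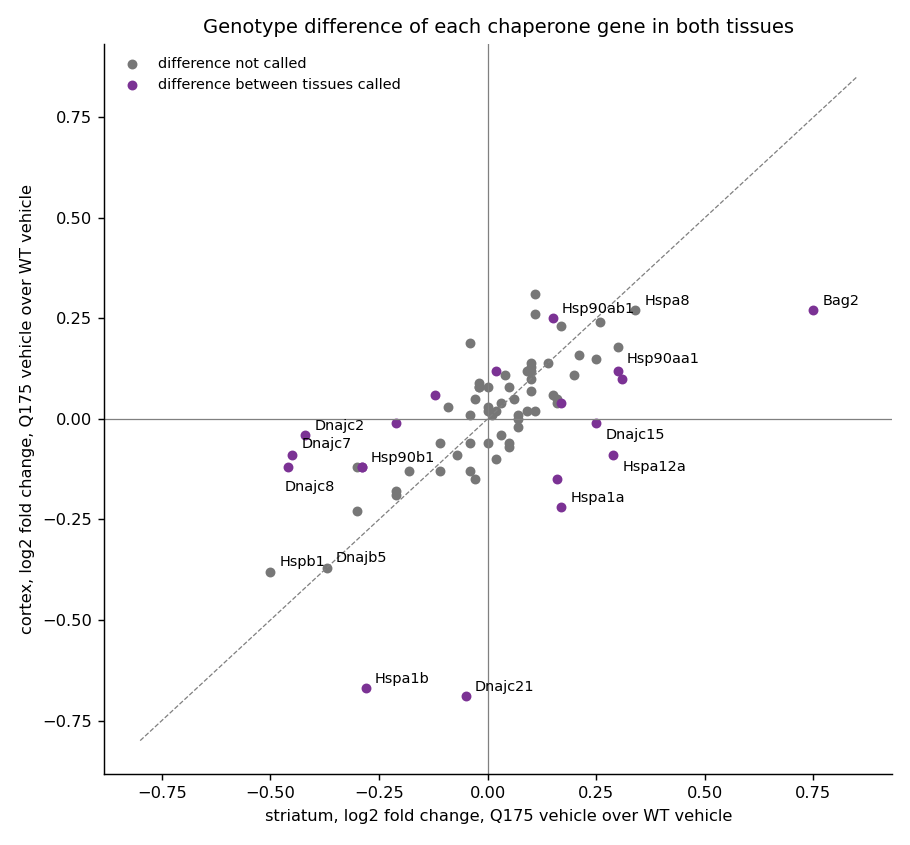
Each point is a chaperone gene, with its log2 fold change of Q175 vehicle over WT vehicle in the striatum on the horizontal axis and in the cortex on the vertical axis, and the dashed line marks equal values. The coloured genes, 10 higher and 9 lower in striatum, differ between tissues by test, among them Bag2, Dnajc7 and Dnajc8 with larger striatal differences and Dnajc21 and Hspa1b with larger cortical ones.

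Partners of these chaperones were counted over lists of pathway genes. In the same comparisons 21.9% of all genes were higher and 23.2% lower in Q175 striatum, and 14% and 16.4% in Q175 cortex. Of 20 HSP70 and HSP90 co-chaperones, 5 were higher and 5 lower in Q175 striatum and 5 higher and 3 lower in Q175 cortex. Fkbp4, an HSP90-binding immunophilin, and Ahsa1, which stimulates the HSP90 ATPase, rose in the striatum by 0.33 ± 0.0537 and 0.22 ± 0.039 and in the cortex by 0.13 ± 0.0377 and 0.17 ± 0.0408, while Ttc4 differed by -0.26 ± 0.0293 and -0.15 ± 0.0307. Of 10 genes listed as partners of CCT, 3 were higher and 2 lower in the striatum and 3 higher and none lower in the cortex. The list includes Tcp1, itself a CCT subunit but outside the symbol rule of the members, which rose in the cortex by 0.08 ± 0.0285. Vbp1, a prefoldin subunit, was at 0.38 ± 0.0459 and 0.16 ± 0.0528 and Pdcl at 0.30 ± 0.034 and 0.14 ± 0.0442. Of 25 other ER chaperones and genes of the unfolded protein response, 10 were lower and 2 higher in the striatum, and 6 lower and 1 higher in the cortex. The sensor Atf6 differed by -0.64 ± 0.0478 and -0.27 ± 0.0451, the transcription factor Xbp1 by -0.32 ± 0.0498 and -0.18 ± 0.0581, and Sdf2l1, which binds Dnajb11, by -0.62 ± 0.101 and -0.61 ± 0.104. Of 7 heat shock factors Hsf1 alone was called in the striatum, at -0.22 ± 0.0706, and none was called in the cortex. Of 13 mitochondrial quality control genes 2 were higher and 1 lower in the striatum and 5 higher in the cortex, with the protease Htra2 at 0.28 ± 0.0503 and 0.17 ± 0.036. Of 7 other stress-inducible chaperones, the autophagy receptor Sqstm1 rose by 0.17 ± 0.0318 and 0.17 ± 0.0305, and the secreted chaperone Clu differed by -0.21 ± 0.0563 and -0.17 ± 0.0419.

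Cell type markers moved with genotype in the same libraries. Summed CPM of 15 medium spiny neuron markers ran from 6662 to 7911 CPM around 6861 CPM in Q175 striata against 13442 to 18742 CPM around 17530.0 CPM in WT striata, and 14 of 15 were lower. For 10 astrocyte markers the sums were 3755 to 4075 CPM around 3941 CPM in Q175 striata against 4300.5 to 5481 CPM around 5194 CPM in WT striata, with 7 lower and 2 higher, and in the cortex 7 were lower and 1 higher. In Q175 cortex 15 of 15 medium spiny neuron markers and 6 of 10 cortical excitatory neuron markers were lower, and 3 of 10 microglia markers were higher. No blood marker was called in either tissue, and without Q175 mouse F4 all 5 were lower in Q175 striatum and 4 in Q175 cortex. The part of these shifts in the chaperone results was not tested.

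PF-02545920 changed few chaperone genes in the Q175 striatum. At 0.32 mg/kg 3 members were higher and none lower, where 2.17% of all genes were higher and 0.323% lower. At 1.0 mg/kg none was higher and 1 lower, where 0.797% of all genes were higher and 0.277% lower. At 3.2 mg/kg 2 were higher and none lower, where 1.33% of all genes were higher and 0.15% lower. The genes were Bag6, Hspbp1 and Dnajc4 at the lowest dose (0.19 ± 0.0476, 0.24 ± 0.0678 and 0.23 ± 0.0642, log2), Hspe1 at 1.0 mg/kg (-0.14 ± 0.0344) and Dnajb5 and Dnajb1 at 3.2 mg/kg. The 4 calls at the lower doses had adjusted p-values from 0.03 to 0.046, and none of them recurred at another dose. None of the 4 was called without Q175 vehicle mouse F4, an alternative chosen after seeing the data (adjusted p = 0.0515 for Bag6, 0.0717 for Hspbp1, 0.0675 for Dnajc4 and 0.0838 for Hspe1). At 0.32 mg/kg no member was called higher without a sex term, with the L number of the labels as a term or with the replicate block, and at 1.0 mg/kg none was called lower without a filter, with the L number or with the block. DESeq2 called 3 higher and 7 lower at 0.32 mg/kg, and its share over all genes is not given here. In edgeR 7 higher and 19 lower members had an unadjusted p under 0.05, as had 3307 of all 17315 genes in either direction. The comparisons of the 3 doses share the same vehicle mice.

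Blood markers moved with the striatal dose comparisons. Of the 5, the low and middle doses each had 2 lower than vehicle and the top dose had 3, which were Hba-a1 at -1.17, Hbb-bt at -1.40 and Alas2 at -1.54 (log2). Their summed level was 67.1 to 1206 CPM around 148 CPM in Q175 vehicle striata and, with rising dose, 82.4 to 174 CPM, 99.5 to 199.8 CPM and 69.5 to 162 CPM. The highest vehicle value was mouse F4, and without it none of the 5 was called at any dose. Without that mouse no member was called at the lower doses and 1, Dnajb5, at 3.2 mg/kg and for the trend. Of all genes 0.759% were then higher and 0.0632% lower at 0.32 mg/kg, and 0.201% and 0.0345% at 1.0 mg/kg. At 3.2 mg/kg 1.15% were higher and 0.0977% lower, and for the trend 1.24% and 0.144%.

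Dnajb5, a DNAJ co-chaperone related to the HSP70 activator Dnajb1, was the member that responded to the compound by more than the spread of its groups. In the striatum its median was 115 CPM in Q175 vehicle mice, 120.3 CPM at 0.32 mg/kg, 138 CPM at 1.0 mg/kg and 241 CPM at 3.2 mg/kg, and 143 CPM in WT vehicle mice. The ranges were 97.4 to 132 CPM, 98.5 to 173 CPM, 124 to 169 CPM and 162 to 309 CPM in the same order, and 98.9 to 178 CPM in WT. All 9 mice at 3.2 mg/kg lay above all 7 Q175 vehicle mice, which held for this member and no other of the 77, and for 0.67% of all genes in either direction. The log2 difference from vehicle was 0.18 ± 0.108, 0.38 ± 0.108 and 1.05 ± 0.111 with rising dose (adjusted p = 0.359, 0.061 and 4.28e-09), and the trend over the 4 Q175 arms was 0.33 ± 0.0346 per step (adjusted p = 2.13e-09). Dnajb1 was the other member called for the trend, at 0.07 ± 0.0182 per step (adjusted p = 0.0365, and 0.0793 without Q175 vehicle mouse F4), where 1.5% of all genes were higher and 0.231% lower. The call of Dnajb5 at 3.2 mg/kg held in 16 of 16 fits that left out 1 library, with values of 0.99 to 1.10, and in all 10 other settings tried. Without Q175 vehicle mouse F4 its difference at 3.2 mg/kg was 1.06 (adjusted p = 2.34e-08) and its trend 0.34 per step (adjusted p = 1.08e-08).

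Dnajb5 was lower in Q175 vehicle than in WT vehicle mice in both tissues, with log2 differences of -0.37 ± 0.11 in the striatum and -0.37 ± 0.0691 in the cortex (adjusted p = 0.00487 and 3.61e-05). In the striatum Q175 mice at 0.32, 1.0 and 3.2 mg/kg differed from WT by -0.19 ± 0.0987, 0.01 ± 0.0987 and 0.68 ± 0.101 (adjusted p = 0.103, 0.936 and 2.70e-07). In the cortex they differed from WT by -0.48 ± 0.0624, -0.44 ± 0.0623 and -0.40 ± 0.064, and all 3 were called, the value at 1.0 mg/kg being -0.42 without cortex libraries F1 and F4. Cortical medians were 169 CPM in Q175 vehicle mice, 139 CPM, 153 CPM and 163 CPM with rising dose, and 207 CPM in WT vehicle mice, and the difference of 3.2 mg/kg from vehicle was -0.03 ± 0.0687 (adjusted p = 0.939). In the cortex the groups at 3.2 mg/kg and vehicle overlapped for all 77 members, and did not overlap for 0.0909% of all genes. The effect of 3.2 mg/kg was larger in striatum than in cortex by 1.06 ± 0.0905 for Dnajb5 and 0.23 ± 0.0508 for Dnajb1 (adjusted p = 4.29e-11 and 0.00524), where 1.1% of all genes were higher and 0.0666% lower in this comparison, which was added after seeing the data.

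Dnajb1 was at 47.9 to 60.4 CPM around 54.4 CPM at 3.2 mg/kg, against 42.4 to 54.3 CPM around 45.2 CPM in Q175 vehicle striata. The groups overlapped, and the log2 difference of 0.22 ± 0.0584 (adjusted p = 0.0415) was called in 6 of 16 fits that left out 1 library, and not without Q175 vehicle mouse F4 (adjusted p = 0.0921).

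A Dnajb5 promoter is shown because PDE10A breaks down cyclic AMP and cyclic GMP and the gene rose with its inhibitor. The full cyclic AMP response element TGACGTCA was in no listed Dnajb5 promoter and in 1 other member (Dnajc27), or 1.19% of member promoters and 1.79% of all. Its 5-letter core TGACG, which the full element contains, was in promoters of 34 members, or 46.4% of member promoters and 20.8% of all, and stands in capitals here, starting at position -43. RefSeq lists further start sites for the gene.
Dnajb5 promoter, chr4:42949617-42949916, plus strand: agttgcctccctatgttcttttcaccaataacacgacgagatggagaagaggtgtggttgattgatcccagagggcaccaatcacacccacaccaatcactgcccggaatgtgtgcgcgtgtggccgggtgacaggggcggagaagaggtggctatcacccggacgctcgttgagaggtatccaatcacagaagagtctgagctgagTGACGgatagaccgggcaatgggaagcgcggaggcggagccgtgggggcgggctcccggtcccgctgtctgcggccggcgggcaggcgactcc

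**Figure D5:**
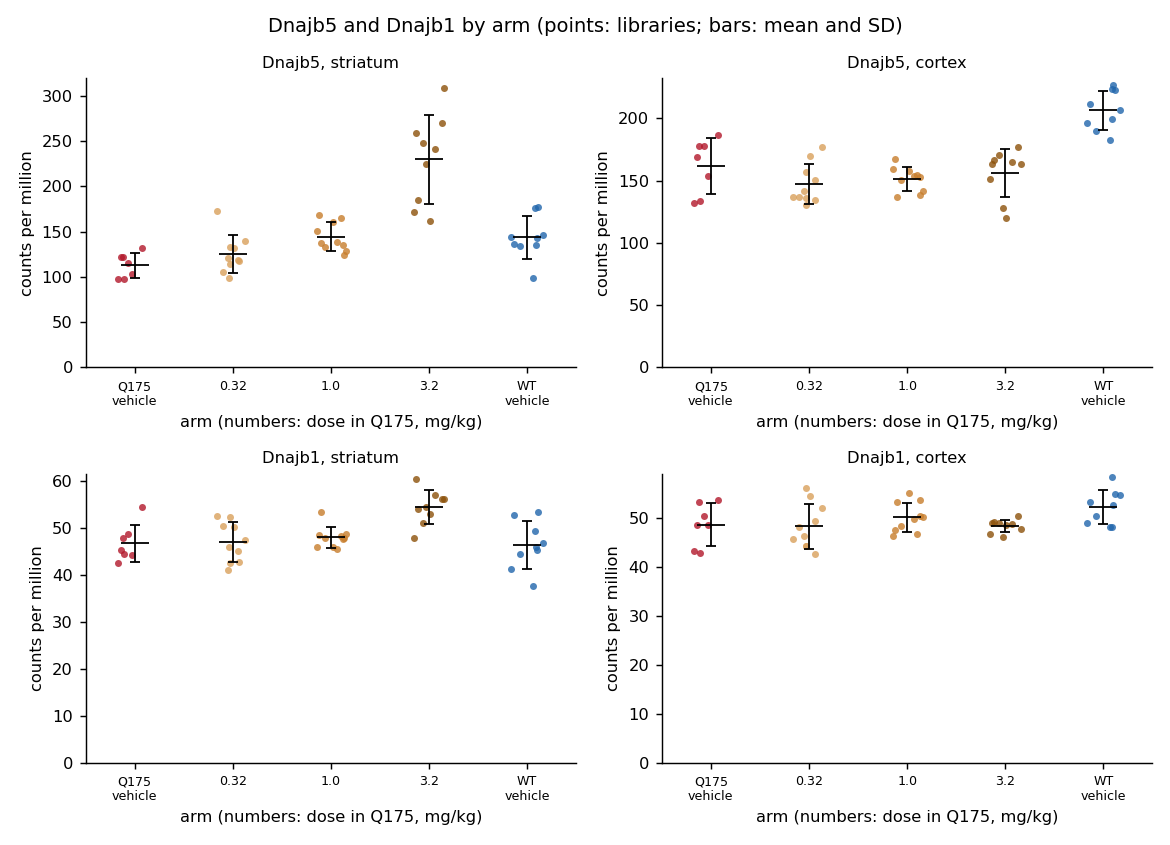
Points are libraries in CPM (vertical axis, from 0) for Dnajb5 (top) and Dnajb1 (bottom) in striatum (left) and cortex (right), with Q175 vehicle, then the doses in mg/kg, then WT vehicle, and bars are the mean and SD. Striatal Dnajb5 at 3.2 mg/kg, 162 to 309 CPM, lies above Q175 vehicle, 97.4 to 132 CPM, and its cortical arms of Q175 mice overlap.

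In the Q175 cortex the calls did not rise with dose. At 0.32 mg/kg 8 members were higher and 1 lower, where 5.18% of all genes were higher and 4.98% lower, and at 1.0 mg/kg 14 were higher and 7 lower, where 10.9% and 9.8% were. At 3.2 mg/kg and in the dose trend none was called, by edgeR or by DESeq2, where 0% of all genes were called by edgeR. At an unadjusted p under 0.05 the counts were 3 higher and 4 lower at 3.2 mg/kg, and 5 and 4 for the trend. Of all 17603 genes, 1307 were under that limit in either direction at 3.2 mg/kg, and 1608 for the trend. Without cortex libraries F1 and F4 of the 1.0 mg/kg arm, 4 members were higher and 3 lower at 1.0 mg/kg and 13 were higher and 2 lower at 0.32 mg/kg. Of all genes 6.12% were then higher and 6.04% lower at 1.0 mg/kg, and 7.99% and 7.82% at 0.32 mg/kg. Without Q175 vehicle mouse F4, 3 members were higher and 1 lower at 0.32 mg/kg and 10 were higher and 4 lower at 1.0 mg/kg. Of all genes 2.65% were then higher and 3.16% lower at 0.32 mg/kg, and 7.86% and 7.83% at 1.0 mg/kg. All 5 blood markers were lower than in vehicle at 0.32 mg/kg (-1.46 to -1.04, log2) and at 1.0 mg/kg (-1.50 to -1.10), and without mouse F4 none was called at either dose (-0.04 to 0.13 and -0.08 to 0.07). Of 8 choroid plexus markers 1, Clic6, was lower at 1.0 mg/kg, at -0.87, while the hallmark Ttr was at -2.07 without a call, and their summed level was 20.03 to 341 CPM around 26.6 CPM at 1.0 mg/kg against 40.1 to 436 CPM around 247 CPM in Q175 vehicle cortices. Of 10 endothelial markers 2, Flt1 and Cdh5, were lower at 1.0 mg/kg, at -0.17 and -0.23. The part of the choroid plexus and endothelial markers in the chaperone calls was not tested.

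Dnajc8, which was lower in Q175 vehicle than in WT cortex, had cortical medians of 69.4 CPM in Q175 vehicle mice, 75.5 CPM, 75.2 CPM and 70.7 CPM with rising dose, and 74.4 CPM in WT vehicle mice. It differed from vehicle by 0.13 ± 0.0269 and 0.15 ± 0.0269 at the lower doses, both called, and by 0.05 ± 0.0274 at 3.2 mg/kg, and by 0.12 at 1.0 mg/kg without F1 and F4 (adjusted p = 0.00218). Bag6, which guards tail-anchored membrane proteins, had cortical medians of 196 CPM in Q175 vehicle mice and 179 CPM, 177 CPM and 187 CPM with rising dose. It differed by -0.13 ± 0.0267, -0.15 ± 0.0267 and -0.08 ± 0.0273, the first 2 called, and by -0.14 at 1.0 mg/kg without F1 and F4 (adjusted p = 0.001). Dnajb9, an ER co-chaperone of BiP, was higher by 0.14 ± 0.0427 at 0.32 mg/kg and 0.21 ± 0.0427 at 1.0 mg/kg, and by 0.14 at 1.0 mg/kg without F1 and F4 (adjusted p = 0.00704). Dnajb4, Dnajc9, Dnajc21, Cct2, Hspa13 and Dnaja1 were the other members higher at both lower doses, by 0.09 to 0.18, and of these Cct2 alone was still called at 1.0 mg/kg without F1 and F4. Without Q175 vehicle mouse F4 the members still called at 0.32 mg/kg were Bag6, Dnajb4, Dnajc8 and Dnajc9, while at 1.0 mg/kg Dnajc21 and Hspa13 lost their calls. At 1.0 mg/kg Dnajc7, Cct8 and Dnajc2 were also higher, by 0.10 ± 0.0227, 0.12 ± 0.0316 and 0.12 ± 0.0337, and Hspa12a fell by 0.11 ± 0.0315, and of these 4 Dnajc7 alone was still called without F1 and F4 and all 4 without mouse F4. Bag6 had been higher in the striatum at the lowest dose.

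Against WT vehicle, Q175 mice at 0.32, 1.0 and 3.2 mg/kg had 24, 22 and 29 members higher and 18, 19 and 15 lower in the striatum, where 25.2%, 27.1% and 25.4% of all genes were higher and 26.5%, 26.2% and 25.6% lower. In the cortex 31, 32 and 26 were higher and 17, 17 and 15 lower, where 22.8%, 25.3% and 18.6% of all genes were higher and 22.7%, 24.6% and 19.7% lower. Without cortex libraries F1 and F4, 31 members were higher and 18 lower than WT at 1.0 mg/kg, with Hspa8 at 0.24, Dnajc21 at -0.55 and all 7 CCT genes still higher. Of all genes 22.7% were then higher and 22.7% lower. Hspa8 stayed above WT at each dose, by 0.27 ± 0.0379, 0.24 ± 0.0379 and 0.44 ± 0.0388 in the striatum and by 0.29 ± 0.0327, 0.28 ± 0.0327 and 0.29 ± 0.0335 in the cortex. Bag2 was above WT in the striatum by 0.63 ± 0.0622, 0.68 ± 0.0622 and 0.61 ± 0.0638. All 7 CCT genes were higher than WT in the cortex at each dose, and 4, 4 and 6 in the striatum. Hsp90b1 stayed below WT in the striatum, at -0.44 ± 0.0429, -0.44 ± 0.043 and -0.35 ± 0.0442, and Dnajc21 in the cortex, at -0.52 ± 0.0428, -0.54 ± 0.0428 and -0.63 ± 0.0441. These comparisons share the WT mice.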

How the data were processed

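The authors deposited, for each of 90 libraries, estimated counts and FPKM per gene. Of the counts 81.5% were whole within 1e-06, and they were rounded before testing. CASAVA 1.8.2 is listed in the submitters' processing notes, while the sources used here do not name the aligner, counter, build, annotation or strand setting. GENCODE M21 (GRCm38) named 36723 of 38561 gene IDs, holding 99.74% of counts, and RefSeq supplied the coding status of 1 member, Cct6a. Hspa14 is not analysed here.

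The main test was edgeR 4.0.16's quasi-likelihood test in R 4.3.3 on the counts, with TMM scaling and filterByExpr, fitted to all 45 libraries of a tissue with arm and sex as terms. Comparisons of the tissues used all 90 libraries with the mouse as a block. The animal numbers in the labels pair the tissues, and the deviations of paired libraries from their group means had a median correlation of 0.59 and a lowest of 0.111 over 45 mice. CPM use TMM-scaled library sizes. Calls are at a Benjamini-Hochberg adjusted p under 0.05 over all genes tested, all 77 members passed the filter, and a standard error is the log2 difference over the square root of F. The trend takes the 4 Q175 arms in equal steps. Alternatives were DESeq2 1.42.0, limma 3.58.1 on log2 FPKM with pseudocounts of 0.1 and 1, RLE scaling, no filter, no sex term, the L number or replicate number of the labels as a term, smaller fits and omitted libraries. The fits were checked on simulated counts.

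The members and gene lists were chosen with earlier results of these data known. Within a family, the named members are up to 4 called per tissue by smallest p for genotype, all called in both tissues, up to 10 called per dose comparison by smallest p, the most abundant, and those beside the CPM limit. Dnajc3, Dnajc5, Dnajc15, Dnajc18, Hspa2, Hspa4l and Hsph1 are outside this rule and were chosen after their values were seen. From each pathway list up to 3 called genes per tissue are named. Libraries of 1 arm differed by more than sampling noise, so none was counted as a repeat.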

Additional observations from a re-analysis of the deposited data

Results flagged for a closer look

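Of 170 groups of libraries tested over 17 members described by library, 14 held a library far from the others, where chance gives about 5%. Hsp90aa1 was low in WT vehicle mouse F5 in the cortex, at 755 CPM, and high in mouse F4 at 0.32 mg/kg, at 1059 CPM. WT vehicle mouse M3 was high for Hspa1b, at 6.78 CPM in the striatum and 21.1 CPM in the cortex, and for Hspb1, at 9.13 CPM and 8.05 CPM. Hspa1b was at 10.4 CPM in cortex library F3 at 3.2 mg/kg. In the striatum, Cct3 was at 130.1 CPM in Q175 vehicle mouse F4, Dnajb1 at 53.2 CPM in mouse M1 at 1.0 mg/kg, and Hspb6 at 7.83 CPM in mouse M4 at 3.2 mg/kg. Bag2 was at 13.9 CPM in cortex library M2 at 0.32 mg/kg. Dnajc8 stood apart in mouse M4 at 3.2 mg/kg, at 83.2 CPM in the striatum and 78.8 CPM in the cortex, and in cortex library F1 at 1.0 mg/kg, at 82.7 CPM.

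The genotype difference differed between the tissues by edgeR's test for 19 members, given here as striatum minus cortex on the log2 scale. It was higher in the striatum for Dnajc21 (0.63), Hspa1b (0.48), Bag2 (0.46), Hspa1a (0.42), Hspa12a (0.37), Hspb11 (0.29), Dnajc15 (0.25), Hspa13 (0.18), Dnajc6 (0.17) and Dnajc18 (0.12). It was lower in the striatum for Dnajc2 (-0.38), Dnajc7 (-0.36), Dnajc8 (-0.35), Dnajb4 (-0.20), Hsp90b1 (-0.18), Hsph1 (-0.18), Bag5 (-0.17), Cct7 (-0.11) and Hsp90ab1 (-0.09). The effect of 3.2 mg/kg differed between the tissues for Dnajb5 (1.06) and Dnajb1 (0.23).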

How the results depend on the processing

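The counts that moved most did so on the FPKM scale, on which all genes shifted up in Q175. Shares of all genes called in each alternative are not given in this section. The counts here are therefore not read as results about the members. With pseudocounts of 0.1 and 1, the members higher in Q175 vehicle than in WT striatum were 46 and 44 (23 as reported) and those lower 6 and 6 (13), those lower in the cortex 8 and 8 (17), and the genotype difference was higher in striatum than in cortex for 24 and 24 (10) and lower for 4 and 4 (9). Median centring, chosen after seeing the data, gave 11 lower in the cortex. Leaving out 1 library gave 21 to 25 higher and 12 to 14 lower in the striatum, and 19 to 21 higher and 13 to 18 lower in the cortex.

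Most dose calls changed with the setting. Without Q175 vehicle mouse F4, chosen after seeing the data, the striatal counts became 0 higher at 0.32 mg/kg, 0 lower at 1.0 mg/kg and 1 higher at 3.2 mg/kg and for the trend, and the cortical ones 3 higher at 0.32 mg/kg and 4 lower at 1.0 mg/kg. At 0.32 mg/kg in the striatum, the reported 3 higher and 0 lower became 1 higher without a filter, 0 higher without a sex term, 0 higher with the L number of the labels as a term, 7 lower by DESeq2, 1 lower on both FPKM scales, 1 higher and 1 lower after centring, and 5 higher and 8 lower with only the groups compared. At 1.0 mg/kg, 0 higher and 1 lower became 1 and 7 by DESeq2, 1 and 3 with only the groups compared, and 0 lower without a filter or with the L number. At 3.2 mg/kg and for the trend, 2 higher became 1 without a filter, on both FPKM scales and with the L number, and 1 to 2 at 3.2 mg/kg when 1 library was left out, with Dnajb5 called each time. In the cortex, 8 higher and 1 lower at 0.32 mg/kg became 5 higher without a filter, on both FPKM scales and after centring, 2 higher with the L number, 2 lower by DESeq2, and 14 higher and 2 lower with only the groups compared. At 1.0 mg/kg, 14 higher and 7 lower became 3 lower without a filter, 9 higher and 4 lower with the L number, 5 higher and 2 lower with only the groups compared, and 4 higher and 3 lower without libraries F1 and F4, whose omission, chosen after seeing the data for the other doses, gave 13 higher and 2 lower at 0.32 mg/kg. With the L number, cortical genotype calls were 11 lower. The cause was not tested.

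Mice of different arms that share a replicate number are different animals (median correlation of deviations 0.382, lowest -0.22, over 166 pairs, with the same number as best match in 85 of 332), so they are not pairs. With the replicate block, genotype counts were 23 higher and 13 lower in the striatum and 21 and 14 in the cortex, the striatal dose counts 0 higher at 0.32 mg/kg, 0 lower at 1.0 mg/kg, 1 higher at 3.2 mg/kg and 1 for the trend, and the cortical count 3 higher at 0.32 mg/kg. The value of 1 named member reversed: Hspe1 in the striatum at 0.32 mg/kg against WT was 0.01 on both FPKM scales. Counting error is largest for the least abundant members, such as Dnajb3 at 1.19 CPM.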
